A study of Mus musculus with 3 samples.

Results

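The genes described here are 10 transcription factor genes known for driving oligodendrocyte differentiation, out of 21887 protein-coding genes: Myrf, Tcf7l2, Zfp488, Zfp536, Zfp24, Zeb2, St18, Myt1, Yy1 and Creb5. They were chosen for their known roles, with earlier results of these data known. Their loci were taken as the annotated gene body with 20000 bp on either side (mm10). Overlapping peaks of the 3 ATAC-seq libraries were joined into sites, and 252 of the 182865 sites of the series touched these loci. By library, 58 of the 252 were called in Seh1cKO cells at day 1, 159 in control cells at day 1 and 157 in control progenitors.

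ATAC-seq marks accessible DNA by cutting it with a transposase. The Seh1cKO library came from cells lacking Seh1, a component of the nuclear pore, after 1 day of differentiation in triiodothyronine (T3, 60 nM) with PDGF-AA, bFGF and NT3 withdrawn. The control day 1 library came from control cells given the same treatment, and the control progenitor library from control cells kept in growth factors without T3. All were immunopanned oligodendrocyte progenitors of C57BL/6 mice from cortices of pups at postnatal day 4 to 7, with 50000 cells per library. The title of the progenitor sample reads DO, taken here as day 0. The Cre driver, the alleles and the number of animals pooled are not given in the sources used here, and Seh1cKO progenitors were not analysed here. With 1 library per group no difference has a replicate check, no test between conditions is given, and intervals cover counting error only. The libraries held 10845533 fragments (Seh1cKO day 1), 18260883 (control day 1) and 23403600 (control progenitors), so the Seh1cKO library had 59.4% of the fragments of its control. Of 8 oligodendrocyte lineage markers, 7 had a peak within 1000 bp of a gene end in each library, Cspg4 being the exception. The same was so for 4 of 6 astrocyte markers in each library, for 2 of 6 microglial markers in each, for 1 of 6 (Seh1cKO day 1), 3 of 6 (control day 1) and 2 of 6 (control progenitors) endothelial and mural markers, and for 4, 5 and 5 of 6 neuronal markers in the same order. The astrocyte markers Aqp4 and Gjb6 and the microglial markers Cx3cr1, Csf1r and Aif1 had none in any library. Of all 21887 protein-coding genes, 56.2% had such a peak in Seh1cKO cells, 63.2% in control cells at day 1 and 62.4% in progenitors. The counts of markers are too small to be told from these shares. An open gene end does not show that a gene is expressed, and the part of other cell types in the results was not tested. The targeted gene, Seh1l, had a gene-end pileup of 4.33 FPM (fragments per 1000000 fragments of the library) in Seh1cKO cells, 3.83 in control cells at day 1 and 3.29 in progenitors; the deleted segment is not given, so this does not check the knockout.

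An oligodendrocyte progenitor divides in growth factors and, when these are withdrawn and thyroid hormone is given, leaves the cell cycle and turns on myelin genes. Several transcription factors act in this switch. Some bind and activate myelin genes, as Myrf does, and others remove blocks to differentiation, as Zeb2 does for BMP and Wnt signalling and Yy1 for repressors such as Id4. Distal elements and promoters of such genes open or close as their use changes, and ATAC-seq reads that opening without measuring transcription.

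Annotated promoter windows, from 250 bases before to 50 bases after a RefSeq start (GRCm38.p6, the coordinates of mm10), were at hand for 7 of the 10 genes, 14 windows in all. Of these, 7 overlapped a peak in Seh1cKO cells, 9 in control cells at day 1 and 12 in progenitors. A pair of Zeb2 windows (chr2:45113204-45113503 and chr2:45113230-45113529) overlap each other. Both were counted for the same progenitor peak, which covers 39 and 13 of their bases. Some other overlaps were small too, such as 30 bases in progenitors at a Tcf7l2 window not printed here. Across all 21263 windows the shares were 51.4%, 54.9% and 54.0% in that order. The 5 windows printed here are some of those that overlap a peak in all libraries or, for Zfp488, in 1 library. Each is printed on the strand of its gene, 5′ to 3′, in lower case. Capitals mark matches on either strand to the E-box CAGCTG, to ACAAAG or the like ACAATG of HMG-box factors such as SOX and TCF proteins, to AGGTCA of nuclear receptors, to CTTTGAA of TCF proteins, to TGANTCA of the factor AP-1, to TGACGTCA, which is the cyclic AMP response element, or to GCCAT of the factor YY1.
Zfp488, chr14:33978715-33979014, minus strand: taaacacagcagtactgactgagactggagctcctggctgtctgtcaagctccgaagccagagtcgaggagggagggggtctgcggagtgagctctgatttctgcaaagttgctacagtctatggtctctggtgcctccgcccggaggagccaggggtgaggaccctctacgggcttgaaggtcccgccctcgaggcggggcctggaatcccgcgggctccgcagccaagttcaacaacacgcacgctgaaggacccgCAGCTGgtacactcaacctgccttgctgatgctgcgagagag
Tcf7l2, chr19:55741560-55741859, plus strand: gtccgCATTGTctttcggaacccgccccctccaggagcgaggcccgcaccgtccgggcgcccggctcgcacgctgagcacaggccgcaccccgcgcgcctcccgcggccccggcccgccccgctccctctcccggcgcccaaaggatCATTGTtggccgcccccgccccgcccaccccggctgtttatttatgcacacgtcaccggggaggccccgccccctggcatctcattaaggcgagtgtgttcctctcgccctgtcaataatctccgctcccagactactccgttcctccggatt
Yy1, chr12:108793047-108793346, plus strand: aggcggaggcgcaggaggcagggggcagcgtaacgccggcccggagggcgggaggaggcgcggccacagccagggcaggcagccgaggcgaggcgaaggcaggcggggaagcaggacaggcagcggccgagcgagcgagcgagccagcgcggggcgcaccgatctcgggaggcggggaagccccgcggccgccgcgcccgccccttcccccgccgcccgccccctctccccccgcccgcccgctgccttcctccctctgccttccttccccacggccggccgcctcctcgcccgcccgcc
Creb5, chr6:53287053-53287352, plus strand: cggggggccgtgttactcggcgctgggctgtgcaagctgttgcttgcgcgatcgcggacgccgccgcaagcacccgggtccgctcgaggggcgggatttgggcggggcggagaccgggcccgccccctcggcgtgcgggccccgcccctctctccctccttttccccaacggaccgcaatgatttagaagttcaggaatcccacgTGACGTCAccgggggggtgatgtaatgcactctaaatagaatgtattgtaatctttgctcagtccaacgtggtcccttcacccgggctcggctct
Myt1 (internal start), chr2:181796057-181796356, plus strand: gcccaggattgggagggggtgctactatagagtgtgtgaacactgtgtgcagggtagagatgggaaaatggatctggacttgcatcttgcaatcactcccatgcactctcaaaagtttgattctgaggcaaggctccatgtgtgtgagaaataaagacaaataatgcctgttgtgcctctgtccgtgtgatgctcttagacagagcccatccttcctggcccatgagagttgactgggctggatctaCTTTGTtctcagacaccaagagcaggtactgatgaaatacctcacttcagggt

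The Creb5 window holds a full TGACGTCA, the element that proteins of the CREB and ATF family bind, which 2.23% of all windows hold. CAGCTG in the Zfp488 window is in 15.6% of all windows, ACAATG (Tcf7l2) in 11.0% and ACAAAG (Myt1) in 16.8%. No window of these genes held AGGTCA (in 14.7% of all windows), the TCF motif CTTTGAA (4.54%) or the YY1 motif GCCAT (38.8%). TGANTCA, in 6.99% of all windows, was in 2 of the 14. The general E-box CANNTG, which includes CAGCTG, was searched but not marked and is in 69.0% of all windows and 5 of these 14. Matches are letters in a window and do not show binding. Peaks covered 134 of the 300 bases of the Zfp488 window in control cells at day 1 and none in the other libraries. All 300 bases of the Tcf7l2 window were covered in both control libraries, and 206 in Seh1cKO cells. Of the Myt1 window 58 bases were covered in Seh1cKO cells, 109 in control cells at day 1 and 201 in progenitors. All lie before its ACAAAG match at base 248, which is outside the peaks.

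Fewer than 50% of the sites called in a control library at these loci were called in the other, close to the shares across the genome. Of 159 sites called in control cells at day 1, 44.0% were also called in progenitors (95% Clopper-Pearson interval 36.2 to 52.1), against 38.9% of all day 1 sites. Of 157 progenitor sites, 44.6% (36.7 to 52.7) were also called at day 1, against 42.6% of all. These shares were 71.4% and 70.4% with lists of equal length, and 69.6% and 80.0% among sites with a −log10 q of at least 10. The shares over all sites were not computed at these settings. The largest classes were sites called in control day 1 alone (87), in progenitors alone (82) and in all 3 libraries (45). These are 34.5%, 32.5% and 17.9% of the sites at these loci, close to the 36.9%, 32.1% and 17.9% of all sites. Sites called in all 3 were strong and wide, with a median highest −log10 q of 23.7 and a median width of 676 bp, while those of control day 1 alone had 3.61 and 171 bp. The same held over the genome, with 25.4 and 668 bp for sites called in all 3 and 2.90 and 168 bp for control day 1 alone. Most strong sites were shared. Of 46 day 1 sites with a −log10 q of at least 10, 4 had no progenitor peak, which is 8.70% against 11.6% of all such sites. In the other direction 2 of 40 strong progenitor sites had no day 1 peak, 5.0% against 3.48%.

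**Figure D1:**
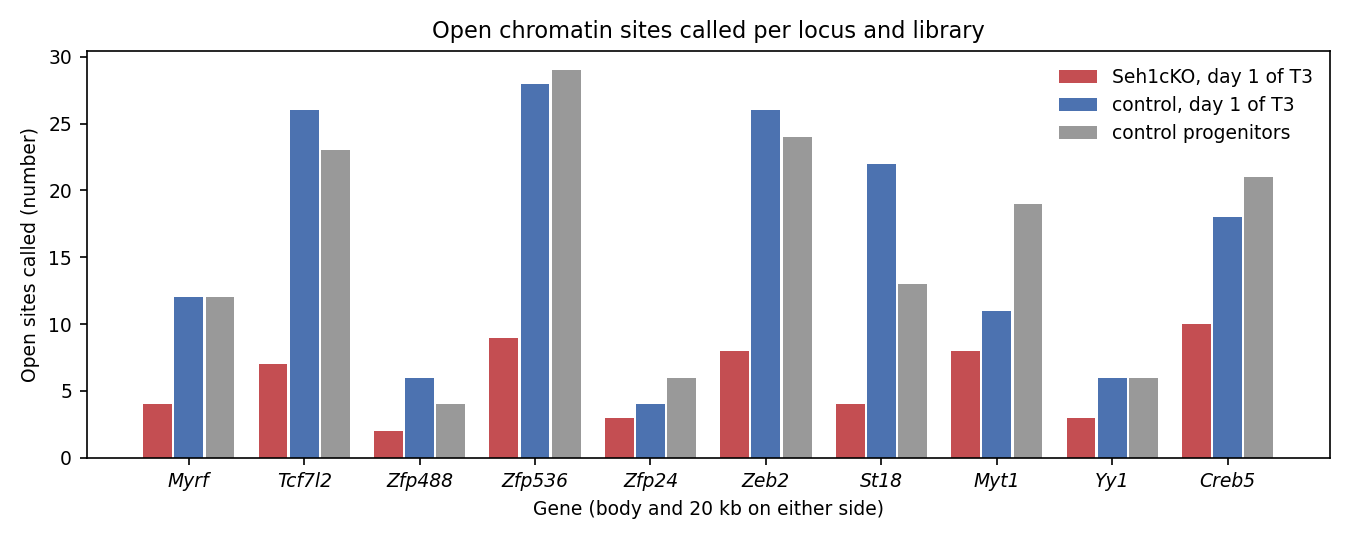
Number of open sites called at each locus (vertical axis) for each gene, in Seh1cKO cells at day 1, control cells at day 1 and control progenitors, 1 library each. Each gene has fewer sites in the Seh1cKO library than in control day 1; St18 has 22 in control day 1 and 13 in progenitors, and Myt1 has 11 in control day 1 and 19 in progenitors.

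Site counts moved in both directions between the control libraries. St18 had 22 sites at day 1 and 13 in progenitors, of which 19 were found in day 1 alone and 9 in progenitors alone. Myt1 showed the opposite, with 11 sites at day 1 and 19 in progenitors, and Creb5 had 18 and 21. Most of these were weak: sites with a −log10 q of at least 10 numbered 4 and 2 at St18 and 4 and 4 at Myt1. Over the genome 116149 sites were called at day 1 and 106158 in progenitors, and 38.9% of the day 1 sites were also called in progenitors. Myrf had 12 in both, Tcf7l2 26 and 23, Zeb2 26 and 24, and Zfp536, the locus with the most sites, 28 and 29. Zfp24 had 4 and 6, Yy1 6 and 6, and Zfp488 6 and 4.

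Heights are given as the pileup at the summit, the number of fragments covering it, either as fragments or as FPM. At sites called in both control libraries this measure was higher at day 1 across the genome, with a median log2 ratio of 0.42, and the 70 shared sites of the 10 loci had a median of 0.37. Of the 70, 25 were at least 1.5-fold higher at day 1 (35.7%, against 37.7% of all shared sites) and 2 at least 1.5-fold lower (2.86%, against 3.75%). Scaling each library to the median of the 32739 sites called in all 3 takes out a log2 shift of 0.48 between control day 1 and progenitors and of -0.33 between Seh1cKO and control day 1. A ratio between no change and that shift changes side under it: 28 of the 70 ratios were above 1 after it and 56 before, and 7 sites were then at least 1.5-fold higher at day 1 and 11 lower. The ratio's own interval lay above 1 at 12 of the 25 higher sites. Myrf, Tcf7l2, Zeb2 and Yy1 held the sites described next, while Creb5 alone among the 10 had a median below 0 (-0.03).

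Seh1cKO cells had fewer sites than control cells at day 1 at each of the 10 loci, as they had over the genome. Their library was also the shallowest, and with 1 library per group depth and genotype cannot be told apart. Of their 58 sites 81.0% (68.6 to 90.1) were also called in control day 1, against 81.8% of all, and 29.6% (22.6 to 37.3) of the 159 control day 1 sites were called in Seh1cKO, against 31.1% of all. With each list limited to the same number of strongest peaks 62.9% of control day 1 sites at these loci were called in Seh1cKO. The share over all sites was not computed for such lists, so 62.9% cannot be set against 31.1%. At 47 sites called in both, the median log2 ratio of Seh1cKO over control was -0.25, against -0.14 over the genome. Of these, 14 were at least 1.5-fold lower in Seh1cKO (29.8%, against 23.8% of all) and 3 at least 1.5-fold higher (6.38%, against 8.92%). The interval lay below 1 at 10 of the 14. After scaling to the sites called in all 3 libraries 9 were lower and 10 higher. Of 46 strong control day 1 sites 9 had no Seh1cKO peak (19.6%, against 20.0%), and none of the 21 strong Seh1cKO sites lacked a control peak (against 0.515%). Both comparisons use the same control day 1 library.

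Within the loci, the lower sites in Seh1cKO all lay away from gene ends. Gene ends here are the outermost annotated ends of any protein-coding gene. They include ends of neighbours such as Fen1, Zfp35 and Slc25a29, while internal starts count as away from gene ends. Among the lower sites, the tallest Myt1 site overlaps the window of an internal start (ratio 0.656). Another, at Yy1, lies just inside the gene (0.505). None of the 10 shared sites within 1000 bp of an annotated gene end was 1.5-fold lower in Seh1cKO than in control, and their median log2 ratio was -0.04. Away from gene ends 14 of 37 were lower (37.8%) and the median was -0.30. The genome showed the same division, with 9.78% lower and a median of -0.01 at gene ends and 30.5% lower and -0.25 away from them. The 9 strong control sites without a Seh1cKO peak were all away from gene ends too (9 of 37, against 0 of 9 at gene ends). At the control level in FPM the Seh1cKO library would have held 11.3 to 19.6 fragments at these 9 sites, and 6 to 10 would have met the weakest p-value called in it. Between day 1 and progenitors the medians were alike at 0.38 at gene ends and 0.36 away from them, but missing peaks again lay away from gene ends: 0 of 9 strong day 1 sites at gene ends and 4 of 37 elsewhere had no progenitor peak, against 1.87% and 16.1% over the genome.

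**Figure D2:**
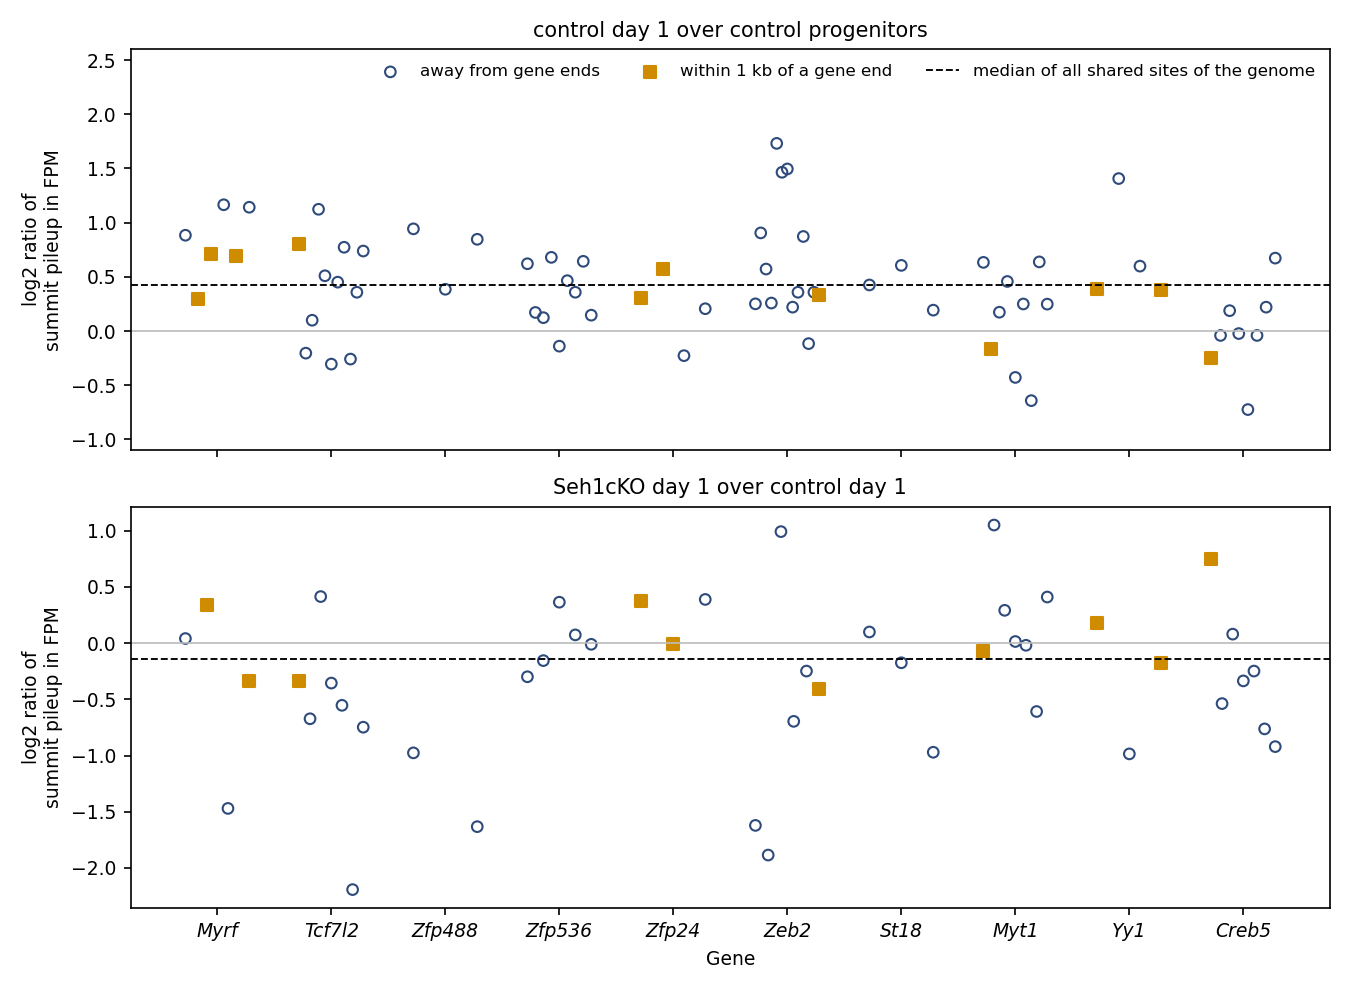
Log2 ratio of summit pileup in FPM at each site called in both libraries (vertical axis), by gene: control day 1 over control progenitors (top) and Seh1cKO day 1 over control day 1 (bottom). Squares are sites within 1 kb of a gene end, circles lie elsewhere, and the dashed line is the median of all shared sites of the genome (0.42 and -0.14). The points furthest below the line in the lower panel are circles, at Tcf7l2, Zeb2, Zfp488 and Myrf.

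Myrf encodes a membrane-bound factor that cleaves itself, enters the nucleus and activates myelin genes. All 6 of its sites shared by the control libraries were higher at day 1 (5 of 6 after scaling to shared sites), with a median log2 ratio of 0.80. At a site inside the gene (chr19:10232525-10233063) the pileup was 12 fragments in Seh1cKO cells, 56 in control cells at day 1 and 32 in progenitors, which is 1.11, 3.07 and 1.37 FPM. Control day 1 stood above both others there. The ratio of day 1 to progenitors was 2.24 (1.43 to 3.58), and that of Seh1cKO to control 0.361 (0.176 to 0.681); 4.49% of strong shared sites of the genome had a lower ratio in Seh1cKO. A site 2289 bp outside the end of higher coordinate (chr19:10243066-10243296) had 30 fragments in control day 1 and no peak in either other library. At its day 1 level 17.8 fragments would lie in the Seh1cKO library, where 10 were needed for a call, and 38.4 in the progenitor library, where 15 were needed. A further site 17727 bp outside (chr19:10258504-10258833) had no Seh1cKO peak, 31 fragments in control day 1 and 18 in progenitors, a ratio of 2.21 (1.20 to 4.19) between the controls. The gene end itself (chr19:10240382-10241012) was called in all libraries, at 1.48 FPM in Seh1cKO cells, 1.86 in control cells at day 1 and 1.15 in progenitors. Near the other end of the locus a site at the ends of Fen1, which encodes a DNA repair nuclease, and Tmem258 had 33 fragments in Seh1cKO cells, 44 in control cells at day 1 and 46 in progenitors. In the same order this is 3.04, 2.41 and 1.97 FPM. The ratio of Seh1cKO to control was 1.26 (0.779 to 2.03) and that of day 1 to progenitors 1.23 (0.792 to 1.89). Both intervals include 1, and after scaling to shared sites the ratios were 1.59 and 0.877.

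Tcf7l2, an HMG-box factor of the Wnt pathway that is also needed for oligodendrocytes to mature, had the site with the lowest ratio of Seh1cKO to control at these loci. It lies 17866 bp beyond the 3′ end of the gene (chr19:55951525-55951958). The pileup there was 10 fragments in Seh1cKO cells, 77 in control cells at day 1, and no peak was called in progenitors. This is 0.922 FPM (0.442 to 1.70) in Seh1cKO cells and 4.22 FPM (3.33 to 5.27) in control cells at day 1, with exact Poisson intervals that do not overlap. The ratio of Seh1cKO to control was 0.219 (0.101 to 0.424), and 0.338% of strong shared sites of the genome had a lower one. By −log10 q it ranked 36 among the 3811 strong day 1 sites that had no progenitor peak. At the day 1 level 98.7 fragments would lie in the progenitor library, where 20 were needed for a call. A neighbouring site (chr19:55953186-55953752) was called in all libraries, at 2.67 FPM in Seh1cKO cells, 4.49 in control cells at day 1 and 2.69 in progenitors. Its ratio of Seh1cKO to control was 0.595 (0.376 to 0.919).

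The start of Tcf7l2, whose promoter is printed above, had 23 fragments in Seh1cKO cells, 49 in control cells at day 1 and 36 in progenitors. Day 1 was higher than progenitors there by a ratio of 1.74 (1.11 to 2.76), while the ratio of Seh1cKO to control, 0.790 (0.460 to 1.32), had an interval that includes 1. Inside the gene a site 65.1 kb from the start (chr19:55806688-55807134) was called in control day 1 alone, with 22 fragments; 13.1 would lie in the Seh1cKO library at that level, where 7 were needed, and 28.2 in progenitors, where 10 were needed. Not every site of the locus followed: at chr19:55788312-55788937 the pileup was 1.75 FPM in Seh1cKO cells, 1.31 in control cells at day 1 and 1.62 in progenitors.

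Zeb2, a zinc finger homeobox factor that represses BMP and Wnt signals, carried the highest ratios of control day 1 to progenitors among sites of these loci called in both. A group of sites lies inside the gene between 48.1 and 58.3 kb downstream of its start. The one furthest from the start (chr2:45058930-45059413) had 11 fragments in Seh1cKO cells, 57 in control cells at day 1 and 22 in progenitors. Its ratio of day 1 to progenitors was 3.32 (2.00 to 5.70), which 2.91% of strong shared sites of the genome passed, and its ratio of Seh1cKO to control was 0.325 (0.154 to 0.626). The next (chr2:45060642-45061370) had 9 fragments in Seh1cKO cells, 56 in control cells at day 1 and 26 in progenitors, with ratios of 2.76 (1.70 to 4.58) and 0.271 (0.118 to 0.551). The third (chr2:45069016-45069659) had 33 at day 1 and 15 in progenitors, a ratio of 2.82 (1.49 to 5.59), and no peak in Seh1cKO cells, where 19.6 fragments would lie at the control level and 6 were needed. In each of the 3, the control day 1 library was the highest.

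Elsewhere in Zeb2 a pair of strong control sites had no Seh1cKO peak, with 19 fragments in control day 1 and 13 in progenitors at chr2:45017580-45017906, and 29 and 25 at chr2:45023644-45024259. The start of the gene (chr2:45116825-45117576) stood at 2.03 FPM in Seh1cKO cells, 2.68 in control cells at day 1 and 2.14 in progenitors. Neither ratio there had an interval that excludes 1, and the higher value at day 1 turned to a ratio of 0.898 over progenitors after scaling to shared sites. One weak site (chr2:45088960-45089602) had a higher value in Seh1cKO cells, at 1.20 FPM, with control cells at day 1 at 0.602 and progenitors at 0.470. It rests on 13 fragments in Seh1cKO cells and 11 in control cells at day 1. Their exact Poisson intervals overlap (0.638 to 2.05 and 0.301 to 1.08 FPM).

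**Figure D3:**
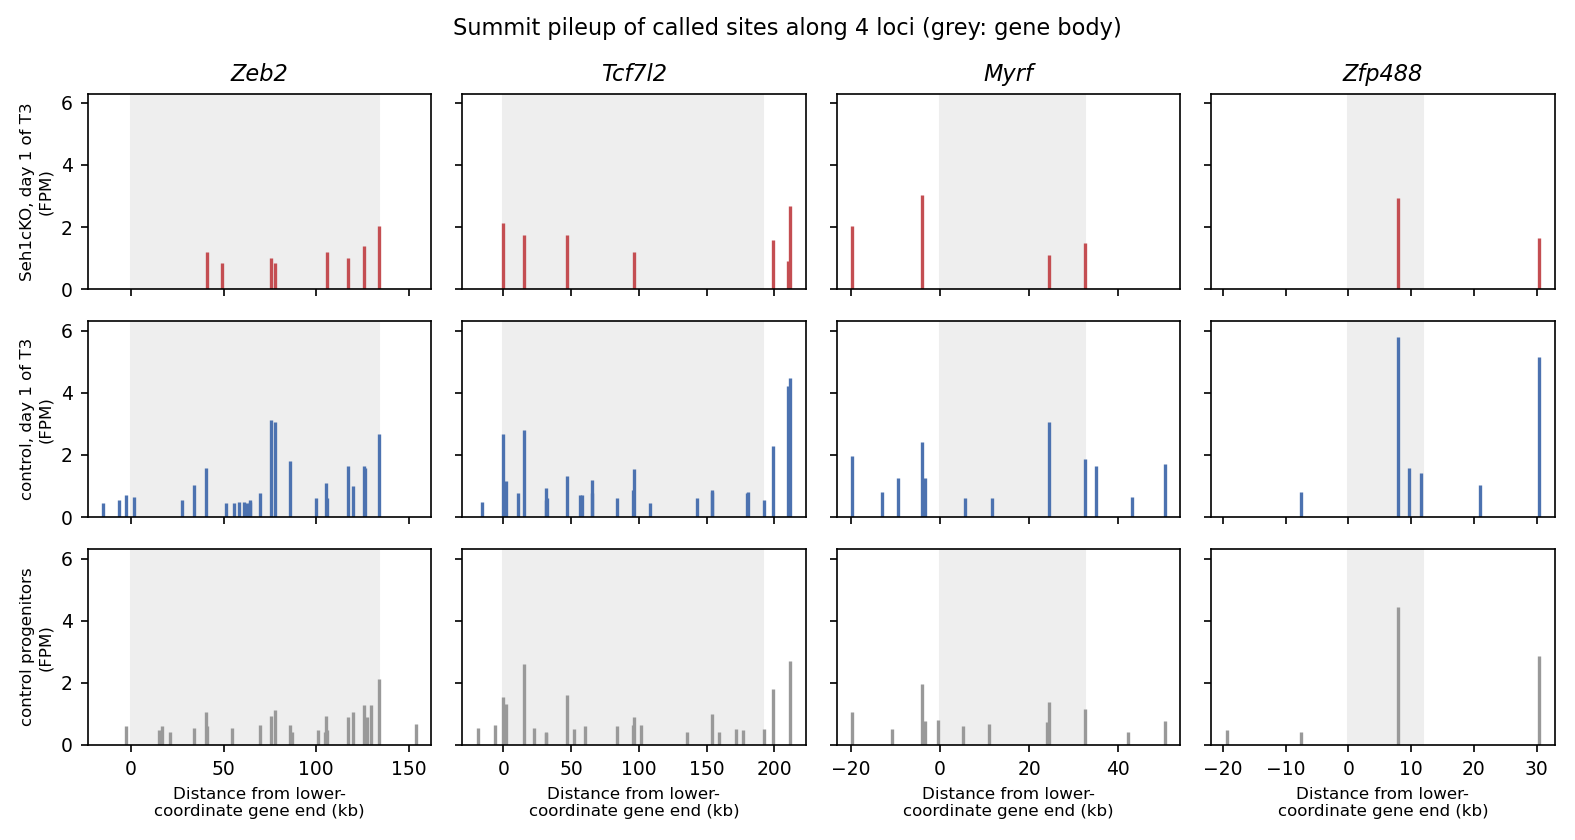
Summit pileup in FPM of every called site (vertical axis) by distance from the gene end of lower coordinate (horizontal axis, kb) at Zeb2, Tcf7l2, Myrf and Zfp488, in Seh1cKO cells at day 1 (top), control cells at day 1 (middle) and control progenitors (bottom). Grey marks the gene body. The site beyond the right end of Tcf7l2 reaches 4.22 in control day 1, is at 0.922 in Seh1cKO and is not called in progenitors.

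Zfp488, a zinc finger protein that works with Olig2 to promote oligodendrocyte differentiation, had few sites but tall ones. The site inside the gene (chr14:33974508-33975459) had 32 fragments in Seh1cKO cells, 106 in control cells at day 1 and 104 in progenitors, or 2.95, 5.80 and 4.44 FPM. The ratio of Seh1cKO to control was 0.508 (0.331 to 0.761). Day 1 and progenitors did not differ beyond counting error there (1.31, 0.987 to 1.73), and the ratio was 0.934 after scaling to shared sites. A site upstream of the gene, 17979 bp outside it (chr14:33997013-33997963), had 18 fragments in Seh1cKO cells, 94 in control cells at day 1 and 67 in progenitors. There the ratio of day 1 to progenitors was 1.80 (1.30 to 2.50), and that of Seh1cKO to control 0.322 (0.183 to 0.538), with 2.82% of strong shared sites lower. The annotated start, within the promoter window shown above, was called in control day 1 alone with 26 fragments (chr14:33978546-33978848); 15.4 would lie in the Seh1cKO library at that level, where 13 were needed, and 33.3 in progenitors, where 20 were needed.

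Yy1, a widely expressed zinc finger factor needed for progenitors to differentiate, differed between its start and the region just inside the gene. At the start (chr12:108792160-108793216) the pileup was 6.64 FPM in Seh1cKO cells, 5.86 in control cells at day 1 and 4.49 in progenitors. The ratio of Seh1cKO to control was 1.13 (0.828 to 1.54), and that of day 1 to progenitors 1.31 (0.988 to 1.73, or 0.934 after scaling to shared sites). A separate site (chr12:108794091-108794723) had 18 fragments in Seh1cKO cells, 60 in control cells at day 1 and 29 in progenitors. It is centred 1.46 kb from the outer end of the annotated gene (108792945). The start used for the printed window lies closer to it, at 108793297. Here the ratio of day 1 to progenitors was 2.65 (1.68 to 4.29), which 7.12% of strong shared sites passed, and the ratio of Seh1cKO to control 0.505 (0.281 to 0.867). The tallest site of the locus in both control libraries lies at the end of Slc25a29, a mitochondrial carrier gene, with 6.55 FPM in Seh1cKO cells, 7.39 in control cells at day 1 and 5.68 in progenitors.

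**Figure D4:**
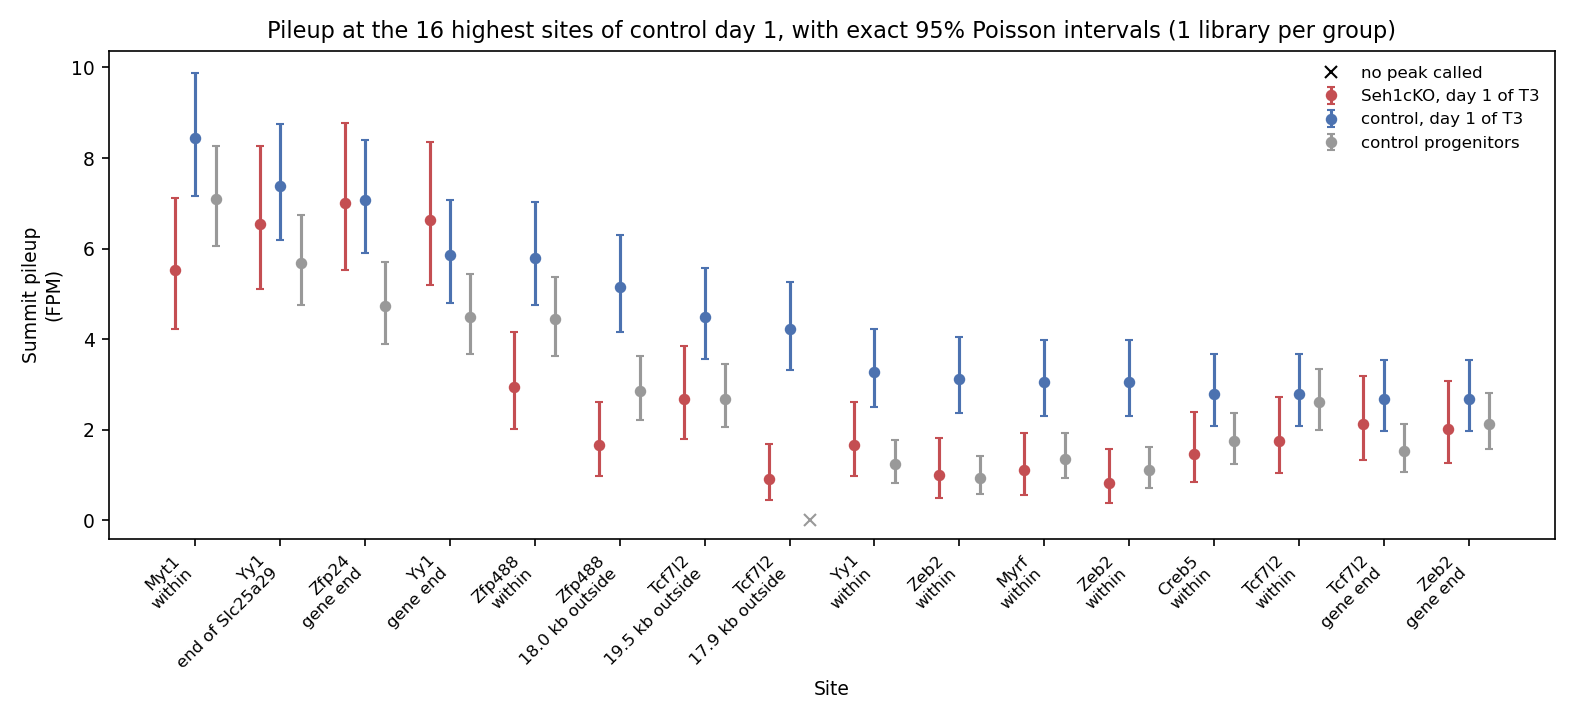
Summit pileup in FPM (vertical axis) at the 16 sites of the 10 loci with the highest value in control day 1, ordered by it, in Seh1cKO cells at day 1, control cells at day 1 and control progenitors. Points are single libraries, bars are exact 95% Poisson intervals (counting error only), and crosses mark no called peak. The gene ends of Zfp24 and Yy1 overlap between Seh1cKO and control, at 7.01 and 7.06 and at 6.64 and 5.86, while the upstream site of Zfp488 is at 1.66 and 5.15.

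Zfp24, a zinc finger gene whose loss in mice blocks myelination, was open at its gene end to nearly the same degree in both day 1 libraries. The site (chr18:24020292-24021269) had 76 fragments in Seh1cKO cells, 129 in control cells at day 1 and 111 in progenitors, or 7.01, 7.06 and 4.74 FPM. The ratio of Seh1cKO to control was 0.992 (0.737 to 1.33), and 1.25 after scaling to shared sites. Day 1 was above progenitors by a ratio of 1.49 (1.15 to 1.94), which 44.8% of strong shared sites passed. No site of the locus was called in control day 1 alone.

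Zfp536, a zinc finger protein known as a repressor of neuronal differentiation, has the longest locus and had mostly weak sites. Its tallest site (chr7:37770169-37770859), 3.52 kb inside the gene, had 2.12 FPM in Seh1cKO cells, 2.14 in control cells at day 1 and 1.37 in progenitors, with ratios of 0.993 between Seh1cKO and control (1.25 after scaling) and 1.56 between day 1 and progenitors. None of its shared sites was 1.5-fold lower in Seh1cKO. A strong site inside the gene (chr7:37625842-37626180) had 28 fragments in control day 1 and 26 in progenitors but no Seh1cKO peak, where 16.6 fragments would lie at the control day 1 level and 8 were needed. The locus also held 4 of the 6 sites called in Seh1cKO cells alone; none of the 6 passed a −log10 q of 4.60.

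St18 and Myt1 encode related zinc finger factors of the MYT family. St18 had a site 9000 bp outside its end of lower coordinate (chr1:6478055-6478231) and another at that end (chr1:6487001-6487343), both called in control day 1 alone, with 24 and 20 fragments. At the first, 14.3 fragments would lie in the Seh1cKO library at that level, where 6 were needed, and 30.8 in progenitors, where 9 were needed. Between them a taller site (chr1:6483242-6483964) was called in all libraries, at 2.58 FPM in Seh1cKO cells, 2.41 in control cells at day 1 and 1.79 in progenitors. Its ratio of day 1 to progenitors was 1.34, or 0.960 after scaling to shared sites, and that of Seh1cKO to control was 1.07. At the far end of the locus (chr1:6866848-6867523) Seh1cKO cells had 10 fragments, control cells at day 1 33 and progenitors 37. In the same order this is 0.922, 1.81 and 1.58 FPM. The ratio of Seh1cKO to control was 0.510 (0.224 to 1.06) and that of day 1 to progenitors 1.14 (0.693 to 1.88). Both intervals include 1, and after scaling to shared sites the ratios were 0.642 and 0.818.

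Myt1, which is expressed in progenitors, had the tallest site of the 10 loci in control cells. It overlaps the upstream part of the window of the internal start printed above (chr2:181795377-181796257), with 60 fragments in Seh1cKO cells, 154 in control cells at day 1 and 166 in progenitors. The ratio of Seh1cKO to control was 0.656 (0.478 to 0.889), and that of day 1 to progenitors was 1.19 (0.949 to 1.49), or 0.850 after scaling to shared sites. Some other sites had lower values at day 1 than in progenitors. At chr2:181787102-181788186 the pileup was 1.57 FPM in Seh1cKO cells, 1.59 in control cells at day 1 and 2.14 in progenitors, and at the first start (chr2:181763754-181764170) it was 1.20, 1.26 and 1.41. The ratios of day 1 to progenitors were 0.743 (0.454 to 1.20) and, at the first start, 0.893 (0.501 to 1.57). Both intervals include 1. Beside that start progenitors alone had peaks of 19 and 21 fragments, for which 14.8 and 16.4 would lie in the control day 1 library, where 13 were needed. A weak site 1.5 kb downstream of the start had a higher value in Seh1cKO cells, at 1.48 FPM, than in control cells at day 1, at 0.712, and was not called in progenitors. It rests on 16 and 13 fragments, with exact Poisson intervals that overlap (0.843 to 2.40 and 0.379 to 1.22 FPM).

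Creb5, a leucine zipper factor of the CREB and ATF family, was the locus with the most strong sites limited to progenitors. A site inside the gene (chr6:53642142-53642405) had 35 fragments in progenitors and no peak at day 1 in either genotype; at that level 27.3 fragments would lie in the control day 1 library, where 11 were needed. Another outside the start (chr6:53267246-53267510) had 21 in progenitors alone, with 16.4 in control day 1 at that level and 8 needed. At chr6:53583298-53583972 the pileup was 0.738 FPM in Seh1cKO cells, 0.931 in control cells at day 1 and 1.54 in progenitors, a ratio of day 1 to progenitors of 0.605 (0.319 to 1.11). The start (chr6:53286691-53288162), with the cyclic AMP response element shown above, had 2.49 FPM in Seh1cKO cells, 1.48 in control cells at day 1 and 1.75 in progenitors. Its ratio of Seh1cKO to control was 1.68 (0.95 to 2.98), the only gene-end site of the 10 loci at least 1.5-fold higher in Seh1cKO, with an interval that includes 1. Of the 8 Creb5 sites shared by the control libraries, 3 had higher values at day 1, or 1 after scaling to shared sites. At chr6:53637460-53638202 the pileup was 1.29 FPM in Seh1cKO cells, 2.19 in control cells at day 1 and 1.88 in progenitors. Control day 1 was also the highest at the tallest Creb5 site (chr6:53650462-53650985), with 1.48, 2.79 and 1.75 FPM in the same order. Its ratio of day 1 to progenitors was 1.59 (1.04 to 2.47), which 37.8% of strong shared sites passed. That of Seh1cKO to control was 0.528 (0.281 to 0.941), with 16.4% of strong shared sites lower. After scaling to shared sites the ratios were 1.14 and 0.664.

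The 10 loci were also set beside those of 24 other lineage transcription factors, such as Olig2 and Sox10, and of 15 myelin protein genes, such as Mbp and Mog. The median log2 ratio of day 1 to progenitors was 0.37 at the 10 loci, 0.24 at the other factors and 0.61 at the myelin genes. The median of Seh1cKO over control was -0.25 at the 10 loci, -0.04 at the other factors and -0.44 at the myelin genes. At least 1.5-fold lower in Seh1cKO were 14 of 47 shared sites of the 10 loci (29.8%), 41 of 144 of the other factors (28.5%) and 19 of 42 of the myelin genes (45.2%). Of strong control day 1 sites 9 of 46 at the 10 loci (19.6%) had no Seh1cKO peak. That held for 21 of 125 at the other factors (16.8%), 12 of 47 at the myelin genes (25.5%) and 20.0% over the genome. On these measures the 10 loci lay below the myelin genes in the size of the difference, and the differences between the lists were not tested.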

How the data were processed

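ATAC-seq peak tables of 3 libraries, 1 per group, were used. The submitters' processing notes list Bowtie2, SAMtools and MACS2 and the build mm10. Peak calling was done library by library with MACS 2.1.2_dev, per the file headers, on paired-end fragments and without a control. Duplicates were kept, the q threshold was 0.05, the largest gap 50 bp, the shortest peak 100 bp and the local background 10000 bp. The deposited tables give the pileup signal at the summit in fragments, the fold enrichment over local background, a ratio, and the −log10 of the p-value and q-value. These scores are the authors' own values for a peak. A shift of reads for the transposase cut is not mentioned in the sources used here.

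Peaks overlapping by at least 1 bp were joined into sites, and a site took the highest pileup of each library, as fragments per 1000000 fragments in that library's header (FPM). Ratios have exact conditional binomial intervals at 95%, and shares Clopper-Pearson intervals. Both cover counting error only, since each group has 1 library. Duplicates were kept, so the fragments counted need not be independent, and intervals from fragment counts may be too narrow even for counting error. A site counts as higher or lower from 1.5-fold, and as strong from a −log10 q of 10. For a site without a peak, the fragments at the other library's level were set against the number that passes the weakest p-value called, with that site's background scaled to depth. The lowest pileup called was 6 in Seh1cKO, 8 in control day 1 and 9 in progenitors. Each gene was described by its gene-end sites, its tallest site, its largest ratio each way among strong shared sites and its strong sites missing from a library; all 10 genes are named, with some weaker sites added after their values were seen. Members and lists were chosen with earlier results of these data known. Gene positions came from RefSeq (GRCm38.p6), without strand for Myrf, Zfp24 and St18. No genome sequence was used, so no distal site is printed. The site-joining and interval steps were checked on simulated data. Python 3.11.15, pandas 2.3.3 and scipy 1.17.1 were used. One gene planned for the list of myelin protein genes is not reported here and was left out of its counts.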

Additional observations from a re-analysis of the deposited data

How the results depend on the processing

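Across 8 other settings, 44 of 72 values of the 10 summary results stayed close to those reported, 26 moved and 2 changed sign. Both changes of sign came with scaling to sites called in all 3 libraries, which gave medians of -0.11 for day 1 over progenitors and 0.0825 for Seh1cKO over control; the counts became 7 higher and 11 lower at day 1, and 10 higher and 9 lower in Seh1cKO. With fold enrichment in place of pileup the median of day 1 over progenitors was 0.19, with 13 sites higher. Keeping sites with a −log10 q of at least 5 gave shares of 59.8% (day 1 sites in progenitors) and 74.3% (progenitor sites in day 1), 1 site lower at day 1, and 1 higher and 8 lower in Seh1cKO. At 10 the shares were 69.6% and 80.0%, with 9 sites higher and 0 lower at day 1, 1 higher and 6 lower in Seh1cKO, 100% of Seh1cKO sites in control and 45.7% of control day 1 sites in Seh1cKO. With each list cut to its 46113 strongest peaks the shares were 71.4%, 70.4% and 62.9% (control day 1 sites in Seh1cKO), with 1 site lower at day 1 and 1 higher in Seh1cKO. Sites lower at day 1 numbered 5 with 50000 bp on either side of the gene and 1 when sites had to overlap by 50% of the shorter peak. The other settings were run at the 10 loci alone, with no values over all sites, so these values do not show a trait of the loci. The cause of these moves was not tested. No paired analysis was possible because each group has 1 library.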
